A study of Mus musculus with 2 samples.

Results

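The 42 genes described here encode subunits of the BAF and NuRD chromatin remodelling complexes and the related remodellers Chd7 and Chd8. They were chosen by name for their place in these complexes and found by gene identifier among the 43346 gene rows of the deposited tables, and all 42 were present. By role, 26 are BAF subunits, 14 are NuRD subunits and 2 are CHD remodellers outside NuRD. RNA came from forebrain of healthy mouse embryos of the strain B6NCrl at embryonic day 11.5, pooled over both sexes, and the labels name no treatment or allele. Replicate 1 pooled 109 embryos, and replicate 2 pooled 88 others under its own sample record. Each library was amplified by a SmartSeq protocol from RNA over 200 nucleotides in an amount equal to 1 cell, so although the labels call the assay single cell, each library is a sample of pooled tissue. There is one group of 2 libraries and no contrast between conditions, so every value below is given per library and without a p-value.

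BAF complexes are the mammalian SWI/SNF remodellers. A Smarca4 or Smarca2 ATPase uses ATP to slide or evict nucleosomes, and the other subunits select the target and shape the activity. In the developing mouse brain, neural progenitors and neurons are known to carry different versions: as progenitors leave the cell cycle, Actl6a (BAF53a), Phf10 (BAF45a) and Ss18 are replaced by Actl6b (BAF53b), Dpf1 (BAF45b) or Dpf3 (BAF45c), and Ss18l1 (CREST). NuRD joins a CHD-family ATPase to histone deacetylases and is known as a brake on gene expression that is also needed for progenitor and neuron development.

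Replacement of Actl6a is known to involve microRNAs, among them miR-9-3p (also called miR-9*), that act on the end of its messenger. The sequences below show miR-9-3p, its match in Actl6a, and the stretches before the starts of Actl6a and Actl6b. The first is the mature microRNA (from RefSeq, build GRCm38.p6, gene copy Mir9-3, plus strand, chr7:79505318-79505339), with the seed, bases 2 to 8, in capitals. The next is a stretch of 25 bases from the 3′ untranslated region of the transcript Actl6a-201 (GENCODE M21, mm10, plus strand, chr3:32726631-32726655), with the letters AGCTTTA, which pair with that seed, in capitals. They occur 1 time in the 371 bases of that region and 0 times in the 196 bases of the Actl6b-205 region. Among 16410 genes with a region at least as long, 2.88% hold these letters in its first 371 bases, read on the transcript strand. The last 2 are the 250 bases before the start that RefSeq gives each gene (GRCm38.p6, plus strand, Actl6a at chr3:32708296-32708545 and Actl6b at chr5:137553296-137553545), with every CG in capitals. GENCODE M21 places the starts elsewhere. Its leading Actl6a transcript, Actl6a-201, begins at 32708507, which is 39 bases upstream of the RefSeq start and inside the stretch shown, and Actl6a-208 begins the gene at 32706298. Its Actl6b-205 begins at 137553520, which is 26 bases upstream of the RefSeq start.
mmu-miR-9-3p: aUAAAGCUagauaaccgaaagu
Actl6a-201 site: aacgtctgtAGCTTTAgtacactca
Actl6a: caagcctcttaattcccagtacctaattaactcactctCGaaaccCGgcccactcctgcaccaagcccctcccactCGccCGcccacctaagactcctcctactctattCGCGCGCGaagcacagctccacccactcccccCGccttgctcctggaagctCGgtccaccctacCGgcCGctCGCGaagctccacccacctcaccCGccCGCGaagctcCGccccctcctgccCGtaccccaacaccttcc
Actl6b: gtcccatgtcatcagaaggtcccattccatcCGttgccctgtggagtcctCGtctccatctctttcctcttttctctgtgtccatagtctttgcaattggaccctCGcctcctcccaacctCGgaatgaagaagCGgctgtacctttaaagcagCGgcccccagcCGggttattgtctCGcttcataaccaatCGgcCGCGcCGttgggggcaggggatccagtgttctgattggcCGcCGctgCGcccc

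The Actl6a stretch holds 19 CG and the Actl6b stretch 15. CG reads the same on both strands. Of the 32851 promoters in the table, of any gene class, 19.7% hold at least 19 and 27.3% at least 15. Promoters were listed for 33 of the members, and their 39 promoters had a median of 23 CG, against 6 over all promoters. The sequences describe the genes, and no microRNA was measured in these libraries.

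The chromatin remodellers were broadly expressed. A gene was counted as detected from 1 TPM upwards (transcripts per 1000000, corrected for transcript length). By that rule 33 of the 42 members were detected in both libraries, 7 in a single library and 2, Dpf3 and Chd5, in neither. The rule took 30.4% of 21474 protein-coding genes in both libraries and 16.1% in a single one, and 16.6% of all gene rows in both. Of the BAF members 20 of 26 were detected in both, of NuRD 11 of 14, and both Chd7 and Chd8 were. Together the members summed to 2370 TPM in replicate 1 and 2753 TPM in replicate 2, and they took 0.493% and 0.561% of the gene counts. The highest was Rbbp4, at 497 and 398 TPM (mean 447 ± 69.8, SD, n = 2), which stood at percentile 98.6 of protein-coding genes by mean TPM.

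**Figure D1:**
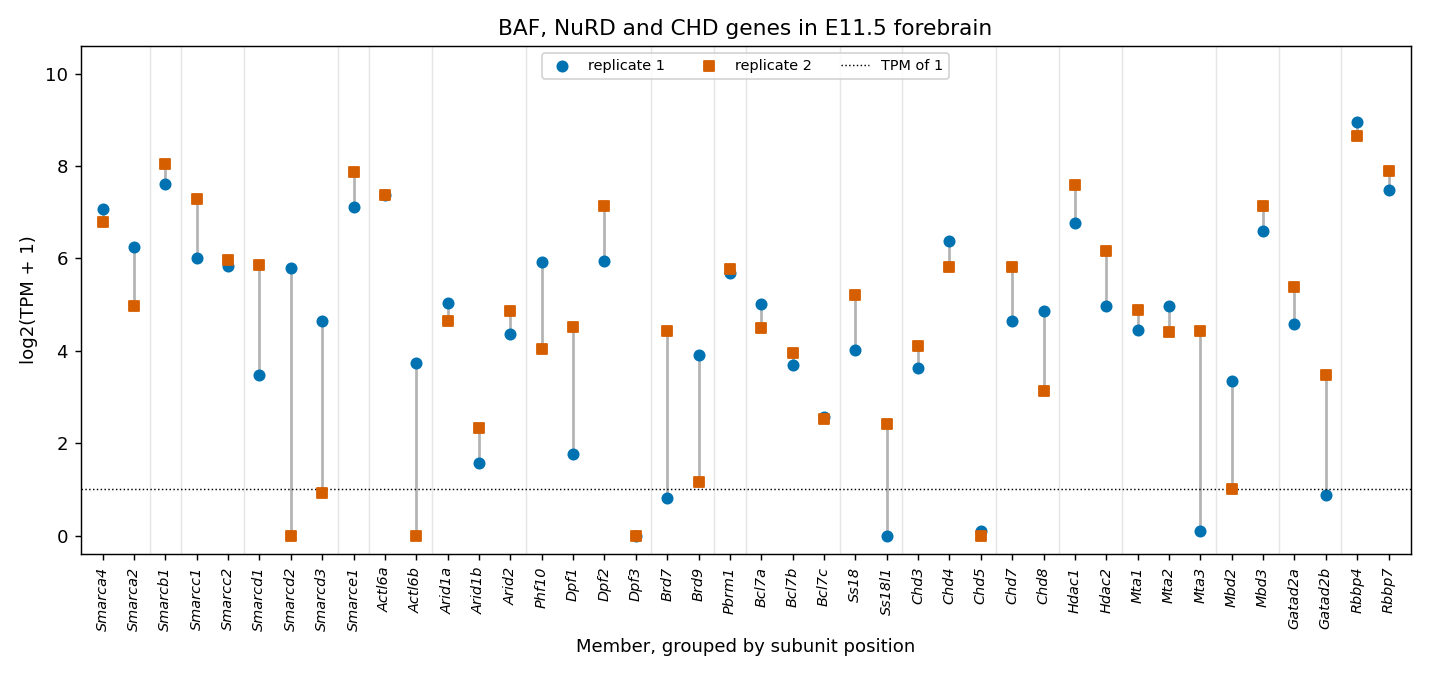
Level of each of the 42 members as log2(TPM + 1) in replicate 1 (circles) and replicate 2 (squares), grouped by subunit position, with a grey line joining the libraries. Rbbp4 was highest in both libraries, Actl6a lay at 164 TPM in each, and Smarcd2, Actl6b, Ss18l1 and Chd5 were at 0 in a single library.

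The tissue label was checked on marker genes. Of the telencephalic genes, Nr2f1 had 115 and 149 TPM and Lhx2 had 47.0 and 42.1 TPM. All 12 progenitor markers (led by Vim, Fabp7 and Sox9) and 12 of 13 young-neuron markers (led by Tubb3, Stmn3 and Stmn2) were detected in both. Progenitor markers summed to 1616 and 2705 TPM and neuron markers to 1412 and 1307 TPM. Vim (741 and 1290 TPM) and Fabp7 (438 and 1010 TPM) made up most of the progenitor sum. Single markers went both ways. Of 11 progenitor markers averaging 10 TPM or more, 2 were 2-fold higher in replicate 2 and 2 in replicate 1. Of 11 neuron markers at that mean, 3 were 2-fold higher in replicate 2 and 2 in replicate 1. The sums therefore do not show a shift shared by either list. Other cells left RNA too. Erythroid genes, led by Hbb-y, Hba-a2 and Hba-x, summed to 31166 and 37330 TPM, endothelial genes (Esam, Egfl7, Kdr) to 129 and 106 TPM, mesenchymal genes (Lum, Col3a1, Col1a1) to 393 and 327 TPM, and myeloid genes (Fcer1g, Aif1, Csf1r) to 115 and 27.3 TPM. Detected in both libraries were 6 of 7 erythroid, 4 of 6 endothelial, 5 of 6 mesenchymal and 2 of 5 myeloid markers. The myeloid gene Aif1 had 33.0 and 0.12 TPM. Of the endothelial markers, Cldn5 was at 0 counts in both libraries. The part these cells have in the values below was not tested. In such bulk samples fewer cells of a type and less RNA per cell cannot be told apart.

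Actl6a, the progenitor-type actin-related subunit, was far above its neuronal counterpart. Actl6a (chromosome 3, 32706298 to 32726973, plus strand) stood at 164 TPM in each library, from 7004 and 6594 counts. Actl6b (chromosome 5, 137553517 to 137569582, plus strand) had 12.4 TPM from 336 counts in replicate 1 and 0 counts in replicate 2. Actl6a was thus 13.3-fold above Actl6b in TPM in replicate 1. In replicate 2 it was at least 2198-fold above it in CPM (counts per 1000000 gene counts), taking 3 counts in the library as the floor. That floor covers counting error alone, so it describes the library and does not bound the ratio in the tissue. On the log2(TPM + 1) scale the gap was 3.63 and 7.37, with a mean of 5.50 ± 2.64 (SD, n = 2). Actl6a was even between libraries, with an SD of 0.30 TPM, and the change in the gap lay with Actl6b.

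The second pair was not alike in the libraries. Phf10 (chromosome 17, 14945009 to 14961273, minus strand) had 60.1 TPM in replicate 1 and 15.4 TPM in replicate 2, and Dpf1 (chromosome 7, 29303951 to 29318243, plus strand) had 2.39 and 21.7 TPM. Phf10 was 25.2-fold above Dpf1 in replicate 1, while in replicate 2 it was 0.708 times the Dpf1 level. Their log2(TPM + 1) gap was therefore 4.17 and -0.47, a mean of 1.85 with an SD of 3.28 (n = 2) that exceeds it. In read counts, which are not corrected for length, Phf10 was ahead in both libraries. Phf10 had 563 and 1298 counts and Dpf1 had 118 and 892, so that Phf10 was 4.77-fold and 1.46-fold higher in CPM. In replicate 2 the average transcript length was 3901 bases for Phf10 and 1950 bases for Dpf1. The count order there does not rank the genes by transcript number. Dpf1 itself was higher in replicate 2 on both scales, by 2.75 in log2(TPM + 1) and 2.63 in log2(CPM + 1).

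Ss18, a subunit fused to SSX in human synovial sarcoma, was above Ss18l1 in both libraries. Ss18 had 15.2 and 35.9 TPM, and Ss18l1 had 0 counts in replicate 1 and 4.34 TPM, from 409 counts, in replicate 2. Ss18 was at least 330-fold higher in CPM in replicate 1 against a floor of 3 counts, which covers counting error alone. In replicate 2 it was 8.26-fold higher in TPM. The log2(TPM + 1) gap averaged 3.40 ± 0.87 (SD, n = 2). Over the 3 pairs, progenitor-type subunits summed to 240 and 215 TPM and neuron-type subunits to 14.7 and 26.1 TPM. Actl6a alone supplied 164 TPM of each progenitor-type sum. The mean gap of the pairs was 3.94 in replicate 1 and 3.23 in replicate 2. It joins pairs that did not move alike. The gap was 3.63 and 7.37 for Actl6a and Actl6b, 4.17 and -0.47 for Phf10 and Dpf1, and 4.02 and 2.79 for Ss18 and Ss18l1. With 2 libraries the smallest two-sided p of an exact sign-flip test is 0.5, so no test was made.

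**Figure D2:**
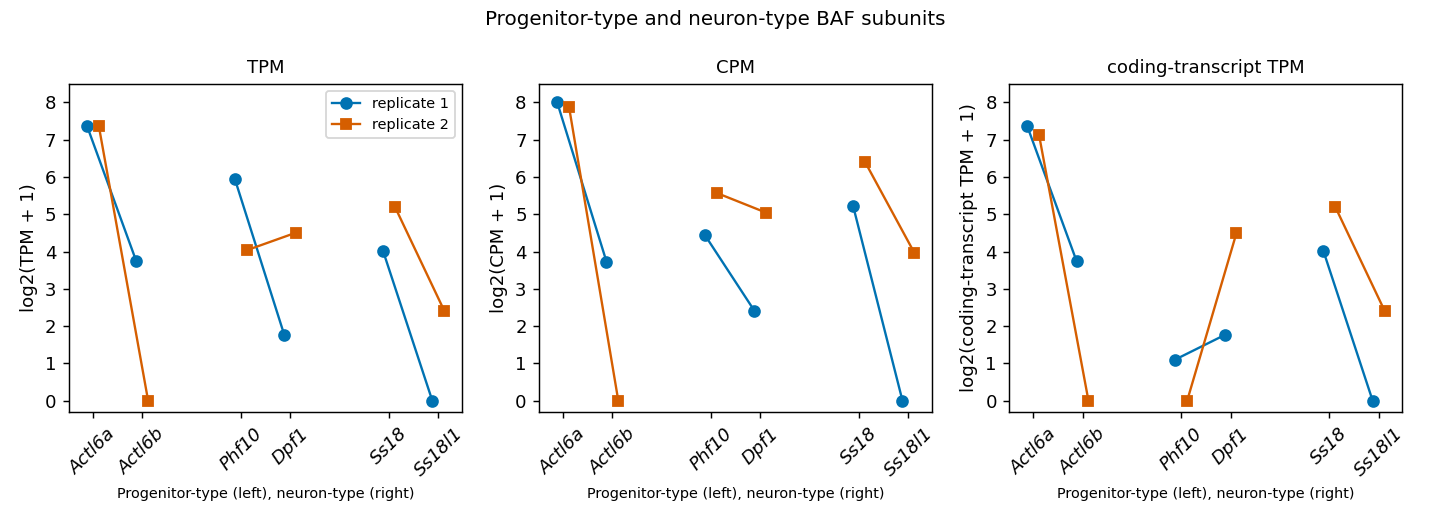
Levels of the 3 progenitor-type and neuron-type subunit pairs in replicate 1 (circles) and replicate 2 (squares), as log2(TPM + 1), log2(CPM + 1) and log2(TPM + 1) over annotated protein-coding transcripts alone. The lines fall from Actl6a to Actl6b and from Ss18 to Ss18l1 in every panel, whereas the Phf10 and Dpf1 lines rise in replicate 2 for TPM and in both libraries for coding transcripts.

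Phf10 was the member whose TPM depended most on which transcript the reads were given to. In replicate 1, the short transcripts Phf10-205 (441 bases) and Phf10-204 (534 bases), both annotated as retained introns, held 58.3% and 39.4% of its TPM. In replicate 2, Phf10-203 (3901 bases), annotated for nonsense-mediated decay, held 100%. The average transcript length behind its TPM was thus 518 and 3901 bases, and its TPM fell by 1.90 on the log2 scale in replicate 2 while its CPM was higher there by 1.14. Transcripts annotated protein-coding held 1.15 and 0 TPM of Phf10, against 2.39 and 21.6 TPM for Dpf1. Phf10 also overlaps 1600012H06Rik on the other strand, which had 1904 and 8.07 counts, and the part of that gene in the Phf10 values was not tested.

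The remaining BAF45 paralogues took the 2 extremes. Dpf2 (BAF45d), which is used in progenitors and neurons alike, led the position in both libraries at 60.9 and 139 TPM. In replicate 1 it was nearly level with Phf10, at 60.1 TPM. On transcripts annotated protein-coding Dpf2 had 31.6 and 45.8 TPM. Dpf3 had 0 counts in both, which allows up to 0.110 and 0.107 CPM by counting error alone. Summed over Phf10, Dpf1, Dpf2 and Dpf3, the position had 123 and 176 TPM.

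Of the catalytic subunits, Smarca4 (BRG1) led in both libraries at 134 and 109 TPM, from 16291 and 13529 counts. Smarca2 (BRM), the alternative ATPase, had 75.4 and 30.1 TPM. Smarca4 made up 64.0% and 78.3% of the pair in TPM. In transcripts annotated protein-coding the distance was wider, because Smarca2 then had 47.0 and 5.23 TPM and Smarca4 kept 134 and 109. Those Smarca2 values came from short transcripts, the longest of them Smarca2-203 (1858 bases). The long coding transcripts Smarca2-201 (5858 bases), Smarca2-209 (5862 bases) and Smarca2-216 (4578 bases) had 0 counts in both libraries. The Smarca2 TPM is thus not a level of full-length messenger. The transcript Smarca2-215 (1460 bases), annotated for nonsense-mediated decay, led that gene with 37.6% and 62.2% of its TPM.

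Core subunits without a paralogue in the list were among the highest BAF genes. Smarcb1 (SNF5), a tumour suppressor that anchors the complex on the nucleosome, had 195 and 261 TPM, and Smarce1 (BAF57), a DNA-binding subunit, had 138 and 234 TPM. Of the scaffold subunits, Smarcc1 (BAF155) had 63.4 and 154 TPM and Smarcc2 (BAF170) 56.3 and 61.4 TPM. The 2 scaffolds were nearly level in replicate 1, where Smarcc1 held 53.0% of their sum, and Smarcc1 held 71.5% in replicate 2. The gap between libraries lay with Smarcc1, at 7905 and 19050 counts, and not with Smarcc2, at 5810 and 6219.

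The BAF60 subunits, which link the complex to transcription factors, changed order between libraries. Smarcd1 (BAF60a) had 10.1 TPM in replicate 1 and 56.9 TPM in replicate 2. Smarcd2 (BAF60b) had 54.4 TPM, from 2947 counts, in replicate 1 and 0 counts in replicate 2. Against a floor of 3 counts, which covers counting error alone, it was at least 1003-fold higher in CPM in replicate 1. Smarcd3 (BAF60c), known for its role in heart and muscle, had 24.0 and 0.89 TPM. The position as a whole had 88.5 and 57.8 TPM. On the log2(TPM + 1) scale that is a difference of -0.61, against 2.38 for Smarcd1, -5.79 for Smarcd2 and -3.73 for Smarcd3.

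Other subunits set the type of BAF complex. Arid1a, which marks canonical BAF, had 31.7 and 24.2 TPM, and its paralogue Arid1b had 1.97 and 4.02 TPM. Pbrm1, Arid2, Brd7 and Phf10 belong to the polybromo complex PBAF. Pbrm1 had 50.4 and 53.5 TPM and Arid2 19.5 and 28.1 TPM, whereas Brd7 had 0.76 TPM from 7 counts in replicate 1 and 20.6 TPM from 951 counts in replicate 2. Brd9, which marks the noncanonical complex, went the other way, at 14.1 and 1.23 TPM. In TPM the BCL7 accessory subunits were ordered alike in both libraries, with Bcl7a at 31.1 and 21.5 TPM, Bcl7b at 11.9 and 14.5, and Bcl7c at 4.91 and 4.76. Bcl7c was even in TPM but uneven in counts, at 466 and 97, so in replicate 1 it was ahead of Bcl7b, at 356 and 523. Its leading transcript had 4338 bases in replicate 1 (Bcl7c-202) and 785 bases in replicate 2 (Bcl7c-204). Both are annotated for nonsense-mediated decay, and its transcripts annotated protein-coding held 0 and 0.53 TPM.

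Among NuRD subunits, the histone chaperones came first. Rbbp4 and Rbbp7, which also serve in other chromatin complexes, had 497 and 398 TPM and 178 and 237 TPM. The deacetylase Hdac1 had 107 and 191 TPM and Hdac2 had 30.3 and 70.8 TPM, so Hdac1 held 78.0% and 73.0% of the pair. Mbd3 had 95.7 and 140 TPM, far above Mbd2, the paralogue that binds methylated DNA, at 9.12 and 1.02 TPM. Gatad2a, a bridge between the ATPase and the deacetylase parts, had 22.9 and 40.7 TPM, and Gatad2b 0.84 and 10.1 TPM.

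Chd4 was the leading NuRD ATPase at 82.5 and 55.5 TPM, above Chd3 at 11.5 and 16.2 TPM. Chd5, known for its expression in neurons, had 13.9 counts in replicate 1 and 0 counts in replicate 2. Most of the Chd4 TPM came from few reads. The transcript Chd4-208 (369 bases, a retained intron) held 71.2% and 50.7% of it with 355 of 3177 counts and 169 of 4135 counts. Counted on transcripts annotated protein-coding, Chd4 had 22.6 and 27.3 TPM and Chd3 0.22 and 12.7 TPM. The MTA scaffold position had 51.2 and 69.3 TPM, with Mta1 at 20.8 and 28.3, Mta2 at 30.4 and 20.3, and Mta3 at 0.07 and 20.6 from 1 and 743 counts. For Mta3 that is a ratio of 728 in CPM, with a 95% Clopper-Pearson counting interval of 130 to 28774.

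The 2 other CHD remodellers lay in opposite order in the libraries. Chd7, mutated in human CHARGE syndrome, had 23.9 and 55.5 TPM, and Chd8, a gene associated with human autism, had 28.2 and 7.72 TPM. Chd8 had 4771 and 830 counts and Chd7 3497 and 5408, so the order was also opposite in counts.

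**Figure D3:**
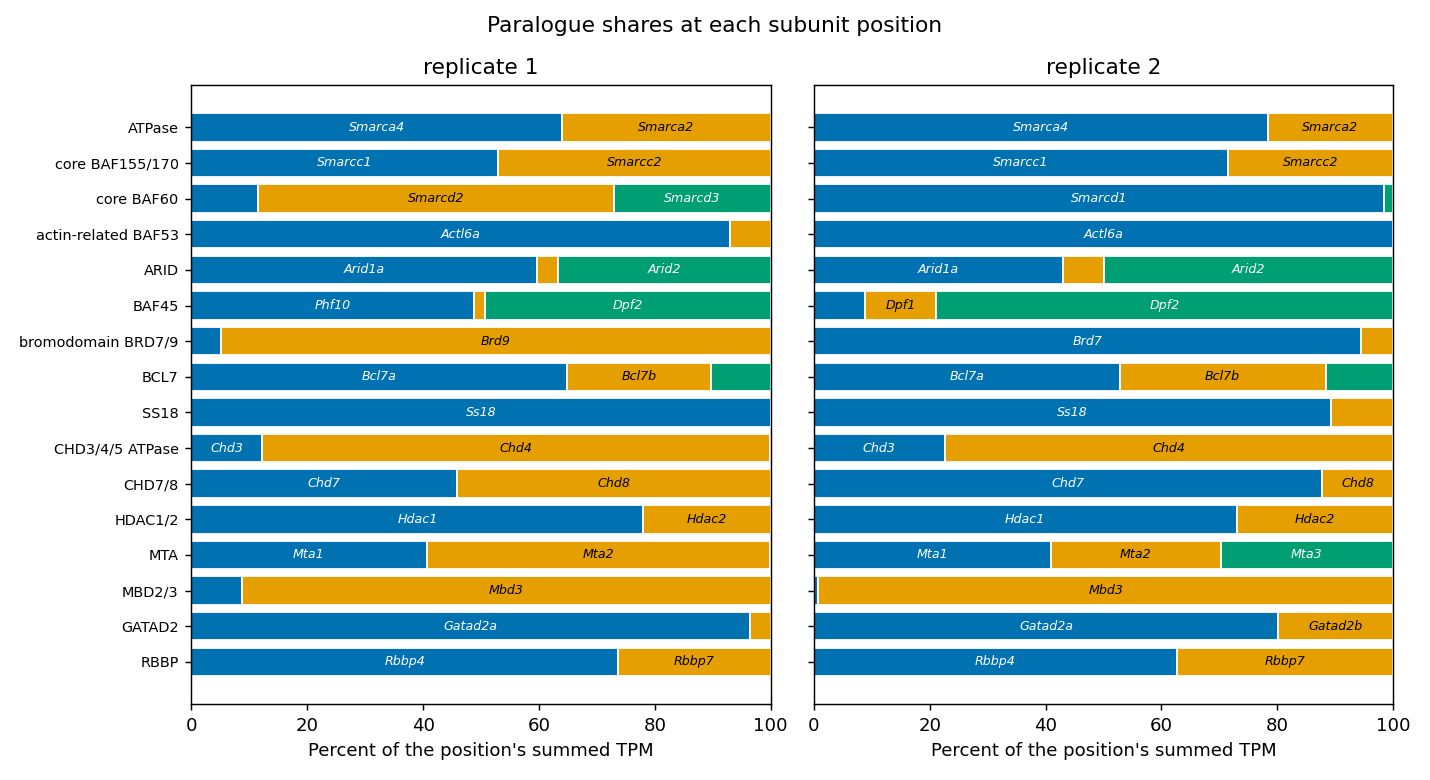
Percent of the summed TPM of each subunit position that each paralogue held, in replicate 1 (left) and replicate 2 (right), for the 16 positions with more than 1 gene. A position can join genes of different complexes, as with Arid1a and Arid2. The leading gene was shared by both libraries at 11 positions and differed at BAF60, ARID, BRD7/9, CHD7/8 and MTA.

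Across the 16 positions with paralogues, the same gene led in both libraries at 11. At the other 5, the leaders in replicate 1 and replicate 2 were Smarcd2 and Smarcd1, Arid1a and Arid2, Brd9 and Brd7, Chd8 and Chd7, and Mta2 and Mta1. A position here groups related genes and need not be a single place in a complex. Arid1a marks canonical BAF and Brd9 the noncanonical complex, whereas Arid2 and Brd7 belong to PBAF. Chd8 and Chd7 are remodellers outside NuRD. A change of leader among these genes does not show an exchange of subunits within a complex. In CPM Arid1a led the ARID position in both libraries, which gives 12 positions. On transcripts annotated protein-coding the number was again 11, with Arid1a leading in both and Rbbp7 ahead of Rbbp4 in replicate 2. The summed TPM of a position had a median absolute difference between libraries of 0.43 on the log2(TPM + 1) scale over all 19 positions, and 2 of them, SS18 and GATAD2, differed 2-fold.

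Large differences between the libraries were common among the members, and common among other genes. Of 33 members averaging 10 TPM or more, 14 (42.4%) differed at least 2-fold, that is by 1 in log2(TPM + 1), against 51.2% of 7148 protein-coding genes. Replicate 2 was the higher library for 9 members (27.3%), against 26.8% of those genes, and replicate 1 for 5 members (15.2%), against 24.5%. In CPM 13 of the 33 differed 2-fold, against 51.4%. The share was smaller at high levels for members and protein-coding genes alike. It was 5 of 7 members against 84.7% at a mean of 1 to 10 TPM, 5 of 7 against 76.1% at 10 to 20 TPM, and 5 of 11 against 56% at 20 to 50 TPM. Above that it was 3 of 6 against 42.8% up to 100 TPM, 1 of 6 against 29.4% up to 200 TPM, and 0 of 3 against 10.5% beyond. By complex this was 10 of 20 BAF members, 2 of 11 NuRD members (Hdac2 and Mta3) and both CHD members. Of 9 members averaging 100 TPM or more, 1 differed 2-fold, Smarcc1, by 1.27. Of these 33 members, 3 (9.09%) had under 1% of their depth-scaled counts in a library, Smarcd2, Brd7 and Mta3, against 17.2% of protein-coding genes. A gene that passes the mean through a single library must differ, so these counts describe the tables. The median absolute difference was 0.76 for these members and 1.04 for the protein-coding genes. The median difference was 0.42 towards replicate 2 for the 40 members averaging 1 TPM or more, of which 24 were higher in replicate 2, and 0.13 for 9735 protein-coding genes.

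TPM and counts did not always point the same way. Among members averaging 10 TPM or more, Phf10, Chd4 and Arid2 (3 of 33 members, 9.09%) were higher in different libraries in log2(TPM + 1) and log2(CPM + 1), against 6.66% of protein-coding genes. Arid2 had 3664 and 2247 counts but 19.5 and 28.1 TPM. Its reads were given wholly to Arid2-201 (8507 bases) in replicate 1 and for 94.3% of TPM to Arid2-204 (3406 bases, a retained intron) in replicate 2. Chd4 had 3177 and 4135 counts but 82.5 and 55.5 TPM. Chd3 kept its direction, at 477 and 1552 counts, but differed by 1.62 in log2(CPM + 1) and by 0.47 in log2(TPM + 1).

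**Figure D4:**
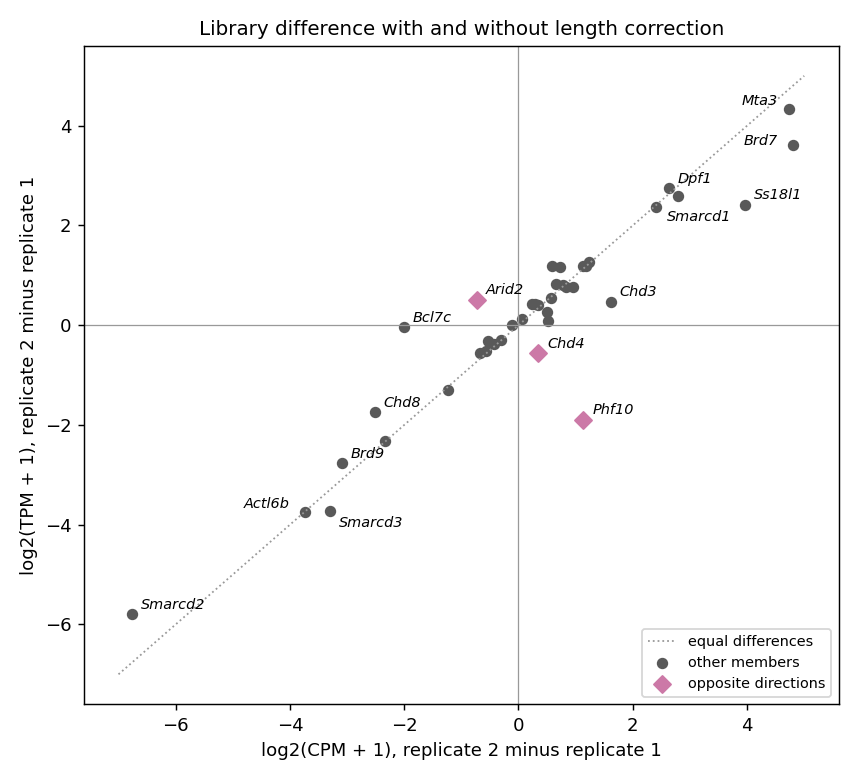
Difference between libraries (replicate 2 minus replicate 1) in log2(CPM + 1) on the x axis and log2(TPM + 1) on the y axis for the 40 members averaging 1 TPM or more. Most members follow the dotted line of equal differences, while Phf10, Chd4 and Arid2 (diamonds) lie in the quadrants where the scales disagree.

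Of 28 members at 5 TPM or more in each library, 18 (64.3%) had the same leading transcript in both, against 73.9% of protein-coding genes. Of the 26 with several annotated transcripts, 16 did, against 65.7%. Smarcc1 gave 100% of its TPM to Smarcc1-201 in both libraries, and Actl6a gave 99.1% and 83.1% to Actl6a-201. Some pairs of leaders were of nearly the same length. Arid1a-202 (8175 bases) held 99.9% of Arid1a in replicate 1 and 38.6% in replicate 2, where Arid1a-205 (8187 bases) led with 61.4%. Gatad2a-201 (5208 bases) held 58.0% and 0% of Gatad2a, and Gatad2a-203 (5205 bases) 1.09% and 59.6%. Of 32 members averaging 10 TPM or more with reads in both libraries, 11 (34.4%) had under 50% of their TPM on transcripts annotated protein-coding in at least 1 library, against 21.2% of protein-coding genes. The top-ranked Rbbp4 was one of them, with Rbbp4-203 (722 bases, no coding sequence annotated) at 61.3% and 73.4% of its TPM from 4245 and 4035 of 20176 and 14155 counts.

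**Figure D5:**
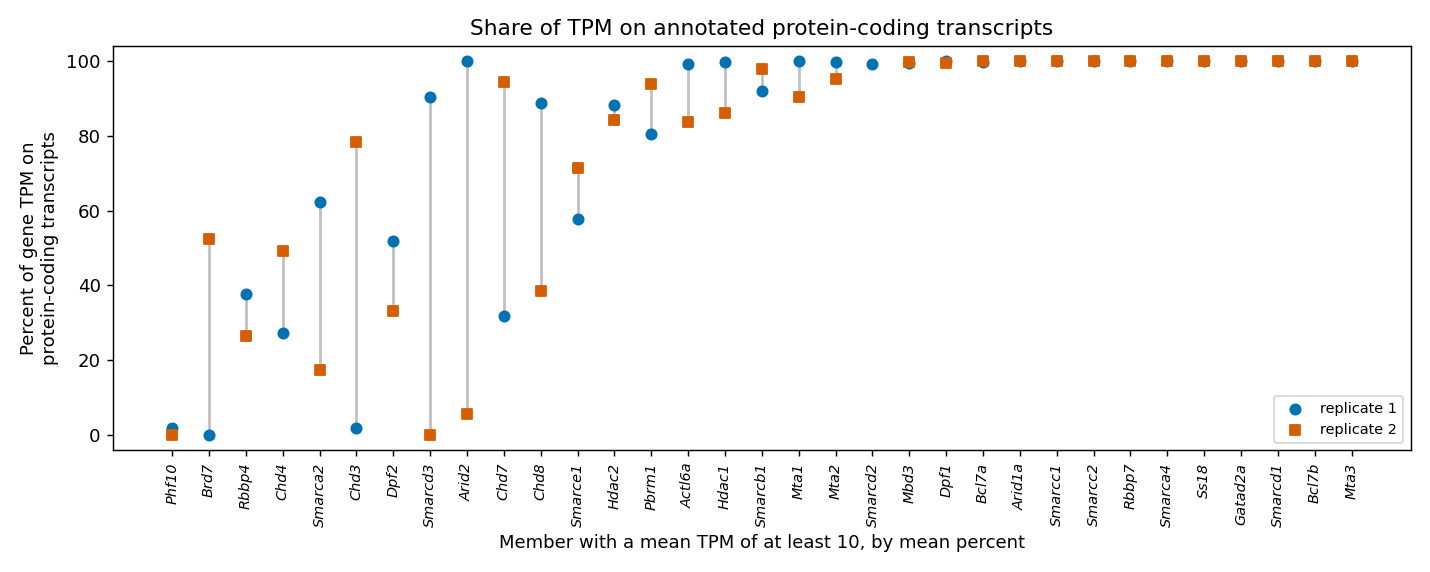
Percent of each member's TPM on transcripts annotated protein-coding in replicate 1 (circles) and replicate 2 (squares), for the 33 members averaging 10 TPM or more, ordered by mean percent. Phf10 was lowest at 1.91% and 0%, Arid2 and Chd3 moved across most of the range between libraries, and Smarcd2 has no point in replicate 2, where it had 0 counts.

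Other remodeller families of the same tissue were present too. Of 12 ISWI genes 9 were detected in both, led by Baz2b at 128 and 86.1 TPM, Pole3 at 115 and 63.1, and Baz1b at 42.2 and 51.5. Of 9 averaging 10 TPM or more, 1 was 2-fold higher in replicate 2 and 2 in replicate 1. INO80, SRCAP and EP400 genes were detected in both for 16 of 21, led by Vps72 at 223 and 193 TPM, Mcrs1 at 137 and 146, and the ATPase gene Ruvbl1 at 134 and 122, and of 16 at that mean 3 were 2-fold higher in replicate 2 and 6 in replicate 1. Of 5 other CHD genes 4 were detected in both, led by Chd6 at 24.4 and 29.6 TPM, Chd1l at 22.1 and 28.1, and Chd2 at 4.96 and 35.0. Of 4 at that mean, Chd2 was the 1 that differed 2-fold. Of 11 further partners of BAF and NuRD 6 were detected in both, led by Cdk2ap1 at 53.1 and 156 TPM, Bcl11a at 75.5 and 65.9, and Zmynd8 at 23.6 and 70.4, with 2 of 6 higher 2-fold in replicate 2 and 1 in replicate 1.

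Genes that bear on the neuronal switch were low or uneven. Rest, the repressor of neuronal genes in non-neuronal cells, had 4.24 and 1.74 TPM. Its corepressors Rcor1, Rcor2 and Rcor3 had 6.56 and 13.1, 1.52 and 0.31, and 24.8 and 11.7 TPM. The host RNA Mir9-3hg, from whose locus the microRNA printed above can be made, had 74.6 and 21.2 TPM. Host RNAs of miR-124, another microRNA known to act on Actl6a, were each found mostly in a single library, with Mir124a-1hg at 23.9 and 1.54 TPM and Mir124-2hg at 0 counts and 35.9 TPM. Replicate 1 had more Mir9-3hg and Mir124a-1hg and the only Actl6b reads, and replicate 2 had the only Mir124-2hg reads. Actl6a stood at 164 TPM in both libraries. Any link between these values was not tested.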

How the data were processed

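The members, gene lists and rules were chosen with earlier results of these data known. The libraries held 28639678 and 28948074 expected counts, of which spike-ins took 4.35% and 3.35%. Per the file headers, the deposited tables give expected counts (estimated reads), TPM and FPKM, the last not used here. The authors' transcript tables add the percent of a gene's TPM on each transcript. Posterior SDs and interval limits deposited by the authors were read as a score and not printed. Assembly mm10 and annotation M4 are named in the deposited text. No source used here gives the aligner, quantifier or strand setting, and 8 members overlap a protein-coding gene on the other strand. Estimated counts of 10 members were not whole (tolerance 0.005). Symbols, transcript classes and coordinates came from GENCODE M21, matched by gene ID for 42462 rows. CPM was computed over gene rows. Differences are replicate 2 minus replicate 1 with a pseudocount of 1, which understates low genes. All members were named, with the 3 highest genes of each other list that were detected in both libraries, every REST-list gene and the 3 highest of each marker list, of which 1 is not reported here; Cldn5 was named after its values were seen. The labels' pools make the libraries separate samples. Counting error alone sets the floors and the 95% interval. Python 3.11.15 and pandas 2.3.3 were used.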

Additional observations from a re-analysis of the deposited data

How the results depend on the processing

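Of 61 values recomputed under other settings, 53 stayed within 1.5 times the count reported or within the SD between libraries. For the subunit pairs, leaving a library out always moves the mean gap by less than that SD. Those settings could therefore fail only by a change of sign. For the median difference the tolerance was derived from the difference itself, so the number 53 is not a measure of stability. The Phf10 and Dpf1 gap of 1.85 turned to -2.58 on protein-coding transcripts alone, a setting chosen after seeing the data, since the Phf10 reads lie on other transcripts. Without one or the other replicate this gap ranged from -0.47 to 4.17. The gap of Ss18 and Ss18l1 was 5.14 at a pseudocount of 0.1 and 2.07 at 5, because Ss18l1 was at 0 in a library. The mean of the 3 pairs was 4.80 and 2.54 at these pseudocounts and 2.06 on protein-coding transcripts. Members differing 2-fold numbered 9 of 26 at a mean TPM of at least 20, where fewer genes are tested, and 16 of 33 on protein-coding transcripts. Members detected numbered 28 at 5 TPM and 36 at 0.5 TPM, and 37 without replicate 1 and 36 without replicate 2. The 2-fold count, the median difference and the shared leading paralogues and transcripts need both libraries, so no replicate could be left out of them. No paired analysis was possible because there is one group. Small counts limit Actl6b, Ss18l1, Brd7, Mta3, Mbd2 and Gatad2b.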
